A study of Mus musculus with 4 samples.

Results

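Redox genes of glutathione, selenium and biopterin metabolism were examined in the hippocampus of mouse pups at postnatal day 2, in tissue labelled as knockout of the zinc finger transcription factor ZBTB20 and in tissue of wildtype littermates. The genes were Mgst1, Mgst3, Gstm1, Gstm5, Gpx1, Gpx4, Selenop, Pcbd1 and Prdx6. They were taken because earlier results from these same arrays placed them below control in knockout arrays, so their differences between the groups are a description and carry no test. Members were all probe sets whose only gene symbol in the platform annotation was one of these names. This gave 14 of 45037 probe sets and 8 of the 9 genes. No probe set carried Prdx6 as its only symbol, and it is not analysed here.

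Total RNA of dissected and snap-frozen hippocampi was hybridised to 4 Affymetrix arrays, 2 from wildtype littermate controls and 2 from ZBTB20 knockouts. The labels name no strain, no allele and no treatment beyond anaesthesia on ice, and do not give the number of animals behind each array. Any p-value therefore measures only the spread between these arrays, which may be partly technical. The deposited values were MAS5 signal intensities, a linear measure of probe set brightness.

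Glutathione is the main thiol of the cell. Glutathione transferases couple it to reactive compounds, and glutathione peroxidases, several of which hold selenium as selenocysteine, use it to reduce peroxides. Selenoprotein P, made mainly in the liver, carries selenium through plasma to the brain, where neurons take it up through the receptor LRP8. Tetrahydrobiopterin is the cofactor of the aromatic amino acid hydroxylases and of nitric oxide synthases. In the brain, glutathione enzymes are more abundant in glia than in neurons, and the liver is rich in most of them.

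The sequences before the start sites of the 3 genes with the lowest differences in both pairs of arrays, Mgst1, Selenop and Pcbd1, are shown because the members differ in which short motifs they hold. Each is the plus strand of GRCm38.p6 from RefSeq, 250 bases up to the base before the annotated start, with motif matches in capitals. The windows are chr6:138140277-138140526 for Mgst1, chr15:3270727-3270976 for Selenop and chr10:61089081-61089330 for Pcbd1. All 8 genes were found in the RefSeq table, with 15 start sites, and for genes with several starts the window with a match is shown.
Mgst1: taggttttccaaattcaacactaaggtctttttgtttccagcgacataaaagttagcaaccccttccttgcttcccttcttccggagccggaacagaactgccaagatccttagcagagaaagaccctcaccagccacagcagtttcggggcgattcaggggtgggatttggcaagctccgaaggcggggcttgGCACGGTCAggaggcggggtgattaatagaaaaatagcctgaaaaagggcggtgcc
Selenop: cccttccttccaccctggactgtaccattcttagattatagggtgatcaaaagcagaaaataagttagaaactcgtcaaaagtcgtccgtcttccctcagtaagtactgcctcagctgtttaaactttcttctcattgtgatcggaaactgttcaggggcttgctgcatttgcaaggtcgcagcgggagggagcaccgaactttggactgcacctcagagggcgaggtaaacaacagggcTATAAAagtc
Pcbd1: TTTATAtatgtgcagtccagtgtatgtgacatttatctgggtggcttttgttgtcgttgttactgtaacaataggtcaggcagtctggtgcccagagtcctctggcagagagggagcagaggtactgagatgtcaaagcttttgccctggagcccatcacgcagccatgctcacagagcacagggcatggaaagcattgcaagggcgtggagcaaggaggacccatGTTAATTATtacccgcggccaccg
The motifs searched on both strands were TGACNNNGC, the core of the antioxidant response element bound by NRF2, GTTAATNAT, part of the HNF1 site, and TATAAA, the TATA box. The HNF1 and TATA letters were chosen after the sequences were seen, the former because PCBD1 is also the dimerization cofactor of HNF1. Matches of different motifs did not overlap. The antioxidant core was found in 2 of the 15 member windows, before Mgst1 (GCACGGTCA, on the minus strand, from 56 bases before the start) and Gstm5 (TGACCACGC, from 42 bases before). Of all 32851 windows of this length, 10.2% held it, a share close to that of the members. The HNF1 letters were found in 1 of the 15 windows, before Pcbd1 (GTTAATTAT, from 24 bases before the start), and in 0.737% of all windows. TATAAA was found in 3 of the 15 windows, before Selenop, Gstm1 and, on the minus strand at the far end of its window, Pcbd1, and in 12.4% of all windows. A match describes letters only. The 8 genes thus share none of these 3 motifs as a group.

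The arrays came on different scales that coincide with the replicate number. The trimmed mean signal was 498 and 497 for replicate 1 but 158 and 156 for replicate 2, so differences are given within pair 1 (both replicate 1 arrays) and pair 2 (both replicate 2 arrays), each as knockout minus control, the groups being called as labelled. They are on the log2(signal + 32.56) scale, which understates the change of dim probe sets. Each pair value sets 1 array against 1 array, and a mean ± SD below is over the 2 pairs. Of 9 Zbtb20 probe sets, 0 were lower in the knockout array in both pairs, and since no source used here places them inside or outside the deletion, they did not settle the labels. Neuronal genes lay at median percentiles between 98.3 and 98.7 of all 4 arrays. Replicate 1 arrays also carried liver transcripts, given below, and the arrays differed in sex-linked transcripts. Xist, transcribed from the inactive X chromosome, had 1429 on control 1 and 3010 on knockout 1 at 1427262_at, and 14.1 and 16.0 in replicate 2. The Y-linked gene Eif2s3y (1417210_at) had 304 on control 1, 10.7 on knockout 1, 714 on control 2 and 830 on knockout 2. Y-linked signal was thus seen in the control but hardly in the knockout array of pair 1, and in both arrays of pair 2. The part of sex in the pair 1 differences was not tested.

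At the level of genes the members were lower in the knockout array of both pairs, but not at every probe set. With each gene represented by its brightest kept probe set, 8 of 8 genes were lower in both pairs, with medians of log2 -0.28 in pair 1 and -0.68 in pair 2. Over all genes measured this way, 24.0% were lower in both pairs, with medians of -0.01 and -0.00063. Because the members were chosen on this contrast, nothing is read from that share. By single pair, 51.4% of genes were lower in pair 1 and 50.1% in pair 2. Of all 14 member probe sets, 12 were lower in pair 1, 13 in pair 2 and 12 in both. Over all probe sets on the array these shares were 54.7%, 43.6% and 22.7%. The 11 members that passed the filter on dim probe sets gave 10, 11 and 10, against 52.1%, 44.9% and 21.6% of those kept. A difference beyond log2 -0.5 was seen for 3 of 8 member genes in pair 1 and 6 of 8 in pair 2, against 10.5% and 3.49% of all genes. The exceptions were the second Gpx4 probe set and a dim Gstm1 probe set. All 8 genes kept their sign in both pairs under quantile normalization, a common trimmed mean, centring on the 75th percentile, a higher pseudocount and none. In bulk tissue, fewer cells of a type and less RNA per cell cannot be told apart.

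**Figure D1:**
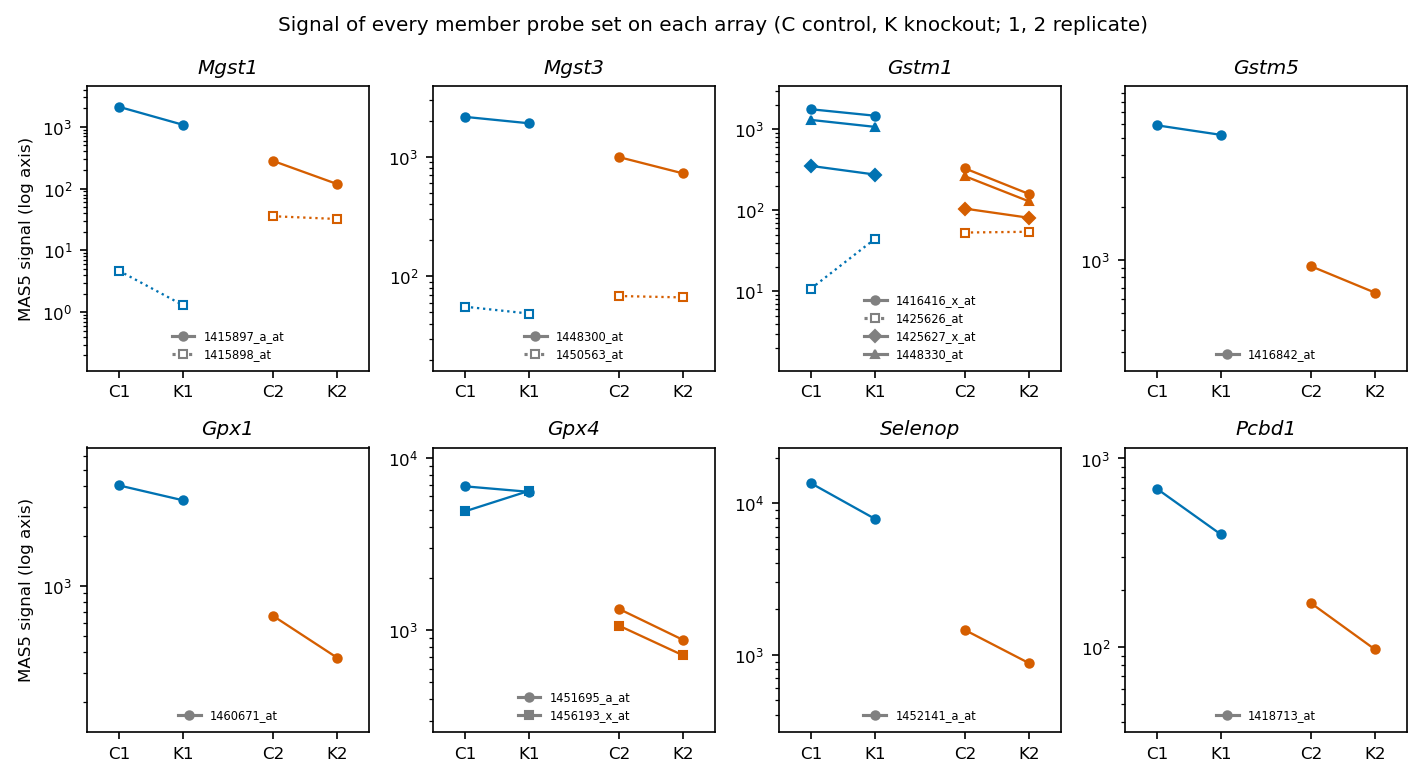
MAS5 signal (log axis) of all 14 member probe sets on the control (C) and knockout (K) arrays of replicates 1 and 2, with 1 panel a gene. Lines join the arrays of a pair, and open symbols with dotted lines are the 3 probe sets below the filter. Lines run down in both pairs except for Gpx4 1456193_x_at in pair 1 and for Gstm1 1425626_at.

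Mgst1, Selenop and Pcbd1 were the 3 members beyond log2 -0.5 in both pairs. For Selenop the pairs were close to each other under all the scalings and pseudocounts tried, while for Mgst1 and Pcbd1 the pair 2 value moved with them. Mgst1 encodes a membrane-bound glutathione transferase of the endoplasmic reticulum and outer mitochondrial membrane. Its probe set 1415897_a_at had signals of 2112 on control 1, 1079 on knockout 1, 282 on control 2 and 119 on knockout 2. Each knockout array was far below the control array of its pair, at 51.1% of it in pair 1 and 42.3% in pair 2. The log2 differences were -0.95 and -1.05, a mean of -1.0 ± 0.07 (SD, n = 2 pairs). Quantile normalization gave -0.94 and -1.45, and a floor of 1 without pseudocount -0.97 and -1.24. A second Mgst1 probe set, 1415898_at, lay below the filter, with signals of 4.7, 1.3, 35.8 and 32.3 on control 1, knockout 1, control 2 and knockout 2. It was also lower in both knockout arrays, but by only -0.14 and -0.08 at that brightness.

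Selenop, the plasma carrier of selenium, had 1 probe set, 1452141_a_at, with signals of 13553 on control 1, 7877 on knockout 1, 1457 on control 2 and 880 on knockout 2. The knockout array stood at 58.1% and 60.4% of the control array, or log2 -0.78 and -0.71 (mean -0.74 ± 0.05, SD, n = 2 pairs). Pcbd1 encodes pterin-4a-carbinolamine dehydratase, which regenerates tetrahydrobiopterin after each hydroxylase cycle. Its probe set 1418713_at had signals of 691 on control 1, 395 on knockout 1, 171 on control 2 and 97.0 on knockout 2. The knockout array stood at 57.1% and 56.6% of the control array, or log2 -0.76 and -0.66 (mean -0.71 ± 0.07, SD, n = 2 pairs). With quantile normalization Pcbd1 was at -0.69 and -1.08, further apart between pairs, and Selenop at -0.75 and -0.66.

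The other 5 genes were at -0.30 to -0.11 in pair 1 and at -0.92 to -0.44 in pair 2, with medians of -0.18 and -0.58. Gpx1 encodes the cytosolic selenium-dependent glutathione peroxidase. Its probe set 1460671_at had 4021 on control 1, 3270 on knockout 1, 661 on control 2 and 370 on knockout 2, so the knockout array was slightly lower in pair 1 and clearly lower in pair 2. The differences were -0.30 and -0.79 (mean -0.54 ± 0.35, SD, n = 2 pairs), with a wider spread between pairs than Mgst1, Selenop and Pcbd1.

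Gpx4 encodes the peroxidase that reduces lipid hydroperoxides within membranes and restrains ferroptosis. Its probe set 1451695_a_at had 6838 on control 1, 6354 on knockout 1, 1333 on control 2 and 881 on knockout 2, with differences of -0.11 and -0.58. Its other probe set, 1456193_x_at, had 4896, 6436, 1066 and 717 in the same order. It was higher in knockout 1 than in control 1 (0.39) and lower in knockout 2 than in control 2 (-0.55). The Gpx4 probe sets thus agreed in pair 2 and had opposite signs in pair 1, where the mean over both was 0.14. The suffix x marks probes that can also bind other transcripts, which limits 1456193_x_at.

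Gstm1 and Gstm5 encode cytosolic glutathione transferases of the mu class. Gstm1 was represented by 4 probe sets. The brightest, 1416416_x_at, had 1763 on control 1, 1467 on knockout 1, 329 on control 2 and 159 on knockout 2, with differences of -0.26 and -0.92. Another bright probe set, 1448330_at, had 1303, 1069, 264 and 129 in the same order, and its differences of -0.28 and -0.88 were nearly the same. Probe set 1425627_x_at was lower by less in pair 2, at -0.32 and -0.27. The fourth, 1425626_at, lay below the filter, with 10.8, 44.5, 53.2 and 54.4 in the same order. It was the 1 member probe set that was higher in the knockout array in both pairs (0.83 and 0.02). Gstm5 (1416842_at) had 5870 on control 1, 5178 on knockout 1, 927 on control 2 and 655 on knockout 2, with differences of -0.18 and -0.48. Mgst3, a membrane-bound relative of Mgst1 in eicosanoid and peroxide metabolism, had 2162, 1910, 996 and 727 at 1448300_at in the same order, with differences of -0.18 and -0.44. The dim Mgst3 probe set 1450563_at differed by -0.12 and -0.02.

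Gstm1 and Gstm5 lie in a cluster of Gstm genes that are neighbours in the RefSeq gene order. Of the cluster, 6 genes had a kept probe set, among them the members Gstm1 and Gstm5, which were chosen on this contrast. All 6 were lower in the knockout array in pair 2, at -0.92 to -0.03, and 5 of 6 were lower in pair 1. Over all genes, 50.1% were lower in pair 2 and 51.4% in pair 1. The exception was Gstm7, at 0.40 in pair 1 and -0.50 in pair 2. Gstm3 was at -0.78 and -0.21, Gstm4 at -0.06 and -0.16, and Gstm2 at -0.27 and -0.03. These counts held under all the scalings tried. The genes are near-identical in sequence in parts, so that probe sets of 1 of them, those with x or s in the suffix above all, can take up signal of another. Their values are not independent measurements.

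**Figure D2:**
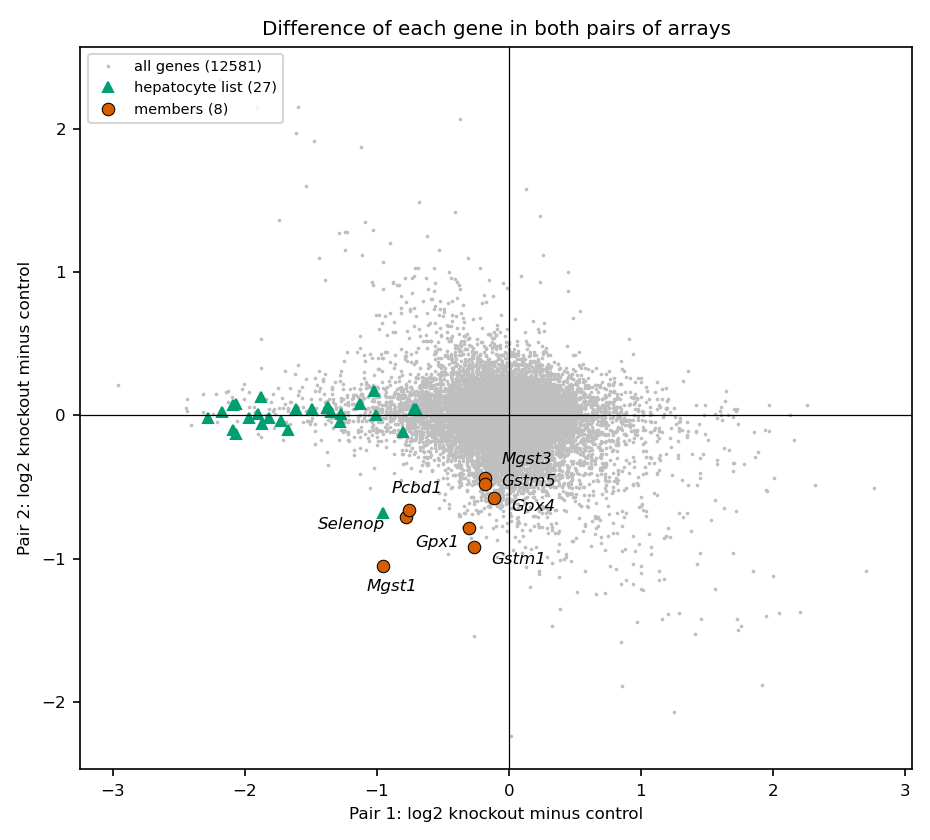
Log2 knockout minus control in pair 1 (horizontal) and pair 2 (vertical) for 12581 genes (grey), the 27 measured hepatocyte genes (triangles) and the 8 members (circles). The members lie at -0.95 to -0.11 in pair 1 and -1.05 to -0.44 in pair 2, and the hepatocyte genes spread along pair 1 from -2.28 to -0.70 with a pair 2 median of 0.01.

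Transcripts of hepatocytes, cells in which Mgst1, Selenop, Pcbd1, Gpx1 and Gstm1 are abundant, were lower along with the members in pair 1, and in pair 2 their median difference was near 0. Of 30 hepatocyte markers, 27 had a kept probe set. All 27 were lower in the knockout array of pair 1, with differences of -2.28 to -0.70 (median -1.61). In pair 2, 11 of 27 were lower (15 with centring on the 75th percentile) and the median was 0.01. The pair 2 range was -0.68 to 0.17, with Itih3 the lowest. Albumin (Alb) had 39309 on control 1 and 15195 on knockout 1, and in replicate 2 just 42.2 (control) and 45.2 (knockout). The apolipoprotein genes Apoa2 and Apoa1 went from 7658 and 4618 in control 1 to 1804 and 1060 in knockout 1. Cyp2e1, a hepatic cytochrome P450, had 2725 and 716 on these arrays, and the fatty acid binding protein gene Fabp1 2508 and 685. The vitronectin gene Vtn had 1731 and 982 there, and 147 (control) and 132 (knockout) in replicate 2. Fah, also listed, had 202 and 209 in replicate 2, so not every listed gene was dim there. Over all 27 genes the summed signal amounted to 76026 for control 1, 25782 for knockout 1, 1243 for control 2 and 1227 for knockout 2.

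In pair 1, Mgst1, Selenop and Pcbd1 (-0.95, -0.78 and -0.76) lay near the upper end of the hepatocyte range of -2.28 to -0.70 (median -1.61). The other 5 members, at -0.30 to -0.11, lay above that range. How much of the pair 1 differences came from liver RNA was not tested. In pair 2 the hepatocyte genes lay at median percentiles of 15.4 (control) and 13.6 (knockout), and the members there were at -1.05 to -0.44. By their brightest kept probe sets, the members themselves were bright on the control array of replicate 2, with Mgst1 at percentile 84.0, Gpx4 at 97.4 and Selenop at 97.7. On the control array of replicate 1 these 3 genes lay at 92.5, 98.2 and 99.2. On the knockout arrays the replicates were further apart, with Mgst1 at 85.1 in replicate 1 and 65.0 in replicate 2. Pcbd1 was higher in replicate 1 by 3.75 percentile points between the control and 10.8 between the knockout arrays, and Gstm1 by 4.54 and 16.0. The median percentile of the hepatocyte genes was 83.4 against 15.4 on the control arrays and 60.7 against 13.6 on the knockout arrays. Percentiles are used here because signals of replicates 1 and 2 are not on one scale. Near the top of an array they change little with signal. Selenop had 13553 on control 1 and 1457 on control 2, and Mgst1 had 2112 and 282. The trimmed means of these 2 arrays were 498 and 158, and the summed neuronal signals 99124 and 28604.

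**Figure D3:**
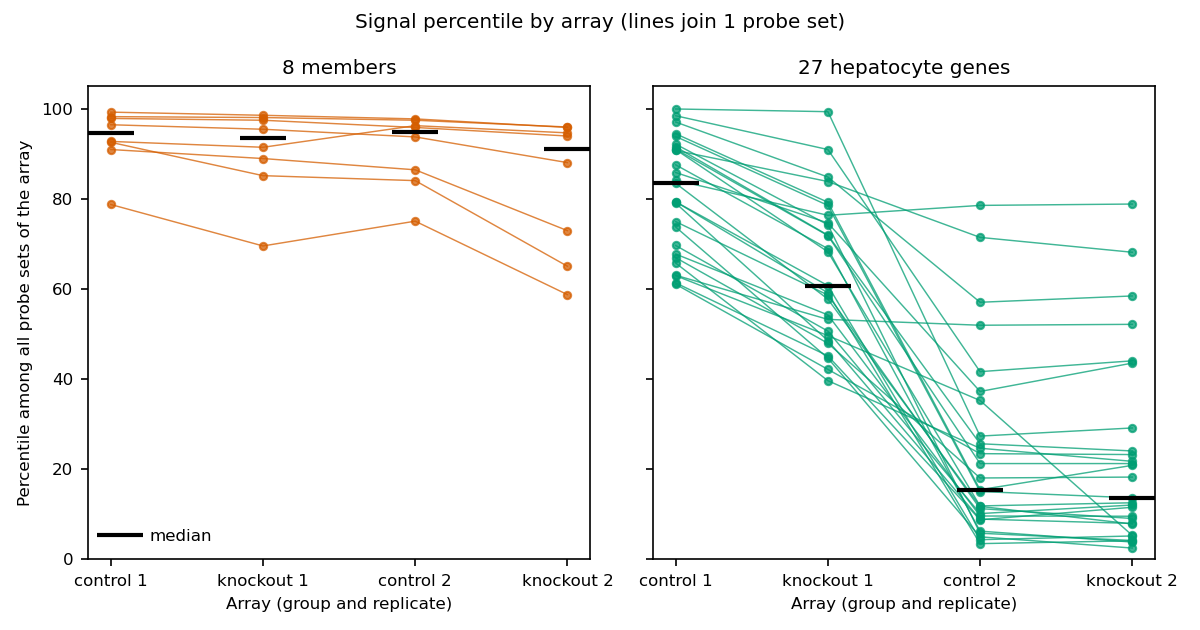
Percentile of the signal among all probe sets of its array, for the 8 member genes (left) and 27 hepatocyte genes (right) on each of the 4 arrays. Each gene is drawn by its brightest kept probe set. Lines join 1 probe set and black bars are medians. The hepatocyte medians are 83.4, 60.7, 15.4 and 13.6 from left to right, while every member probe set drawn stays at percentile 58.7 or above. Dimmer member probe sets, not drawn, lie lower.

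On the deposited scale, the brightest probe sets and the microglial, astroglial and neuronal genes were also lower in pair 2 more often than not. Of the 2703 brightest kept probe sets, 46.4% were lower in pair 1, 62.7% in pair 2 and 29.7% in both, with a pair 2 median of -0.09. With quantile normalization 1342 of them were lower in pair 2 and that median was 0.0, and the member median in pair 2 was -0.75. Of 11 measured microglial genes, 9 were lower in pair 2 (median -0.28) and 5 in pair 1 (median 0.01). Among them, Csf1r was at 0.01 (-0.02 with quantile normalization) and -0.20 and Ctss at -0.15 and -0.69 in the 2 pairs. Of 16 marker genes of astrocytes and radial glia, 12 were lower in pair 2 and 9 in pair 1 (medians -0.20 and -0.09). Their pair 2 range was -1.42 to 0.47, and Aqp4, the lowest there, was at 1.46 in pair 1. The 2 brightest were Fabp7 at 0.03 and -0.02 (0.01 with quantile normalization) and Vim at -0.50 and 0.28, and they do not stand for the list. The summed signal of the microglial genes was 6313 on control 1, 6058 on knockout 1, 2139 on control 2 and 1709 on knockout 2. That of the astrocyte and radial glia genes was 62210, 60437, 20179 and 18291 in the same order, of which Fabp7 alone had 31278, 31833, 7904 and 7806. The part of these cells in the member differences was not tested.

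Of 12 meningeal genes, 9 were lower in pair 1 and 8 in pair 2 (medians -0.17 and -0.14), with Ptgds at 0.39 and -1.01 and Dcn at -1.74 and 1.36, and summed signals of 14400, 12290, 1664 and 1853. The only red blood cell gene kept, Alas2, was at -0.28 and -0.31. For 11 genes of endothelium and pericytes the medians were -0.31 and -0.0021, the latter 0.01 with a common trimmed mean, with Cldn5 at 0.30 and -0.14 and Rgs5 at 0.65 and -0.34. Choroid plexus genes were on the higher side (medians 0.44 and 0.43, summed signals 63870, 76141, 4017 and 9827), with Ttr at 0.24 and 1.39 and Folr1 at 0.91 and 0.53. Of 7 measured, 2 were lower in pair 1 and 1 in pair 2. Otx2 was at -0.06 (0.02 with quantile normalization) and -0.62. Ttr alone, at 62551, 74106, 3505 and 9232 in the same order, made up most of these sums. Of 12 neuronal genes, 2 were lower in pair 1 and 8 in pair 2 (1 and 6 with quantile normalization), and 0 in both. Their medians were 0.21 and -0.12, with Stmn2 at 0.09 and -0.08 and Tubb3 at 0.36 and -0.04 (0.08 with quantile normalization).

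Pathway genes other than the members did not pass the test of knockout against control. Over 7 lists, 102 such genes had a kept probe set. Of these, limma called 0 at an adjusted p of 0.05 over all 27022 probe sets kept, and 0 reached an unadjusted p of 0.05. Without a block, the gap in scale between the replicates enters the spread within each group. Standard errors were 0.60 for Gsta3 and 1.92 for Gstp1 on the log2 scale. Counts of 0 called, here and for the lists below, therefore say little about these genes. A fit with the replicate number as a block called 0 by limma as well, and 2 reached an unadjusted p of 0.05. Over all probe sets limma called 0 (0.0%) without and 0 (0.0%) with the block, and 5 and 330 reached an unadjusted p of 0.05. Of the 102 genes, 45 were lower in both pairs, 58 in pair 1 and 76 in pair 2, with medians of -0.04 and -0.12. Over all genes, 24.0% were lower in both pairs, 51.4% in pair 1 and 50.1% in pair 2. None of the 102 was lower by over 0.5 in both pairs.

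**Figure D4:**
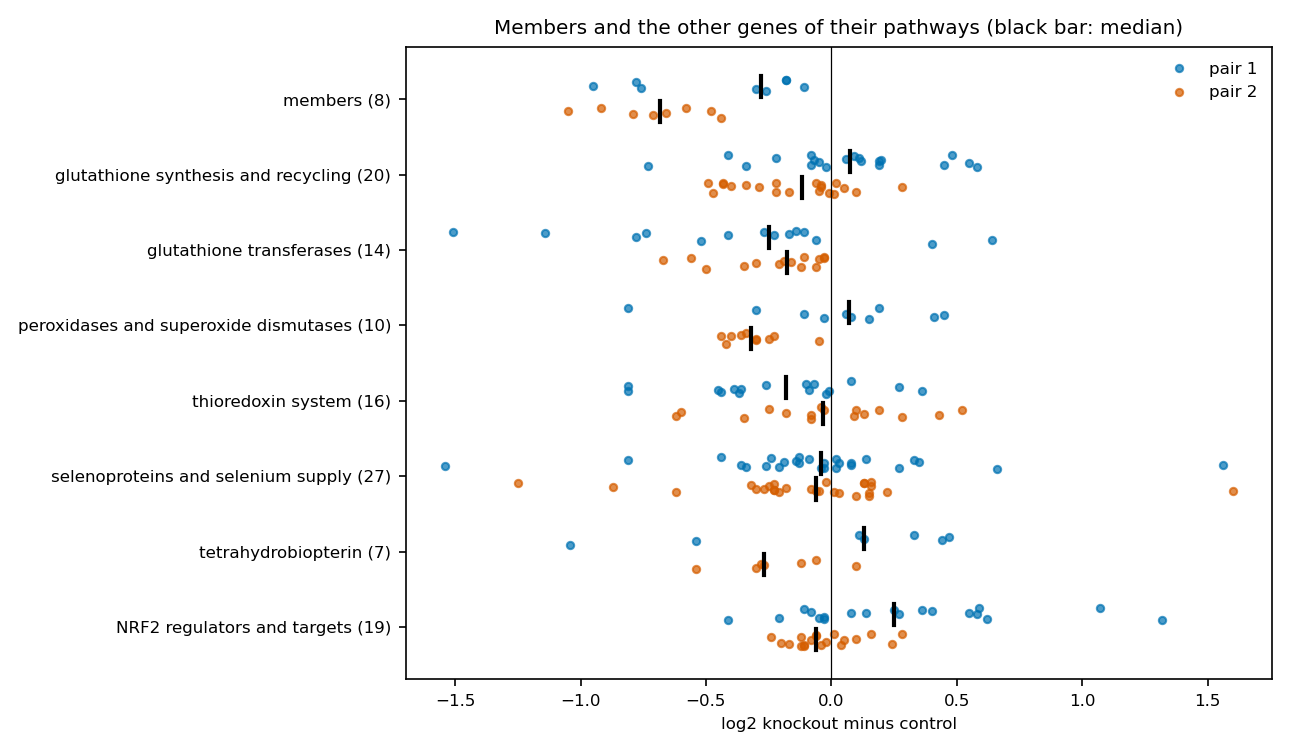
Log2 knockout minus control in pair 1 and pair 2 for the 8 members and for the other measured genes of 7 pathway lists, with the number of genes in brackets and black bars at the medians. The transferase list lies on the lower side in both pairs (-0.25 and -0.17), and the peroxidase and tetrahydrobiopterin lists do so in pair 2 only (-0.32 and -0.27).

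Among glutathione transferases other than the members, 12 of 14 genes were lower in both pairs and 14 of 14 in pair 2, against 24.0% and 50.1% of all genes. The medians were -0.25 and -0.17, and none was called by limma in either direction. The list holds Gstm2, Gstm3, Gstm4 and Gstm7, whose probe sets can take up signal of Gstm1 and Gstm5. Gsta3, an alpha class enzyme, had 325 on control 1 and 92.7 on knockout 1, but 21.9 and 19.7 in replicate 2, so it was lower in pair 1 (-1.51) and hardly differed in pair 2 (-0.06). Gstt2, of the theta class, had 214, 78.9, 54.8 and 53.2 on control 1, knockout 1, control 2 and knockout 2, with -1.14 and -0.03. Ltc4s, the leukotriene C4 synthase gene, was at -0.74 and -0.05 and Gstm3 at -0.78 and -0.21. All 4 were lower mainly in pair 1, and Gsta3, Gstt2 and Ltc4s were dim in replicate 2. They were named for the smallest unadjusted p and do not stand for the list. Gstk1 was at -0.41 and -0.35 and Gstp1 at -0.23 and -0.67, while Gstm7 and Gsto1 were higher in pair 1 (0.40 and 0.64).

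The peroxidases, peroxiredoxins and superoxide dismutases were lower in pair 2 in 10 of 10 genes and in pair 1 in 4 of 10 (medians -0.32 and 0.07), and 0 were called. Prdx4, a peroxiredoxin of the endoplasmic reticulum, was at -0.30 and -0.40, and Prdx2, a cytosolic one abundant in neurons and red blood cells, at -0.11 and -0.30. Gpx2 was at -0.81 and -0.05 and Gpx3, the plasma glutathione peroxidase, at -0.03 and -0.30, its pair 1 value turning to 0.0047 with quantile normalization.

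Genes that make and recycle glutathione did not share the members' direction in pair 1. Of 20 genes, 9 were lower in pair 1, 15 in pair 2 and 7 in both (medians 0.08 and -0.11), and 0 were called. Gclm, the modifier subunit of the enzyme that limits glutathione synthesis, was higher in both, at 0.55 and 0.28. Cth, which makes cysteine, was at -0.73 and -0.17, the cystine transporter gene Slc7a11 at -0.41 and -0.06, and Oplah at 0.48 and -0.05. The genes of NRF2, the transcription factor that controls many of these enzymes, and of its regulators and targets had medians of 0.25 and -0.06. Of these 19 genes, 6 were lower and 6 higher in both pairs, and 0 were called. Nqo1, a quinone reductase and a classical NRF2 target, was at 1.32 and 0.24, from a dim 14.8 on control 1, and the malic enzyme gene Me1 at 1.07 and -0.04.

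Of 27 other selenoprotein and selenium supply genes, 12 were lower in both pairs and 7 higher in both, with medians of -0.04 and -0.06, and 0 were called. Msrb1, a selenoprotein that reduces oxidised methionine, had 892 on control 1, 740 on knockout 1, 213 on control 2 and 127 on knockout 2, lower in both pairs (-0.26 and -0.62). Scly, the lyase that frees selenium from selenocysteine, was at 1.56 and 0.01, from a dim 24.3 on control 1, and its pair 2 value turned to -0.03 with quantile normalization. Sepsecs, an enzyme of selenocysteine synthesis, was at 0.33 and 0.15. Lrp8, the receptor for selenoprotein P, was named as the partner of Selenop after its values were seen, and had 0.35 and -0.18. In the thioredoxin system 8 of 16 genes were lower in both pairs (medians -0.18 and -0.04), and 0 were called. Sesn2 was at -0.81 and -0.03, Msrb3 at -0.45 and -0.04 and Msrb2 at -0.37 and -0.18.

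In tetrahydrobiopterin metabolism, 1 of 7 genes besides Pcbd1 was lower in both pairs, and 0 were called (medians 0.13 and -0.27). That gene was Pcbd2, the paralog of Pcbd1, with 800 on control 1, 540 on knockout 1, 130 on control 2 and 99.1 on knockout 2, or -0.54 and -0.30. Both dehydratase genes were thus lower in each knockout array than in the control array of its pair. Qdpr, which completes the recycling of the cofactor, was at 0.11 and -0.28, the nitric oxide synthase gene Nos3 at 0.44 and -0.12, and Th, the tyrosine hydroxylase gene, at -1.04 and 0.10.

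Few genes had a pattern like that of Mgst1, Selenop and Pcbd1. Over the 4 arrays, 8 of 12581 genes (0.0636%) were lower by over log2 0.5 in both pairs, and 2 (0.0159%) were higher by that much. The lower ones include Mgst1, Selenop and Pcbd1 themselves. Because members were chosen on this contrast, nothing is read from that share. By the higher of the 2 pair differences, the nonmember gene closest to these members was Itih3, at -0.95 and -0.68. Itih3 encodes a plasma protein and is among the 27 hepatocyte genes above. Next was Tmem107, of the ciliary transition zone, at -0.53 and -0.65. Then came Nrsn2 at -0.64 and -0.53 and Tyrobp, a microglial adaptor, at -0.53 and -0.54. Glul, the glutamine synthetase of astrocytes and hepatocytes, was at -1.05 and -0.51. Not below log2 -0.5 in both pairs were Cbln4 at -0.49 and -0.59, Ndufa2, of respiratory complex I, at -0.48 and -0.55, and Ifitm3 at -0.71 and -0.47. Itih3 rests on dim signals in pair 2 (51.0 and 19.5), whereas Glul had 5121 and 2464 in pair 1 and 1915 and 1333 in pair 2.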

How the data were processed

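The authors deposited signal intensities on a linear scale for 45037 probe sets on 4 arrays, for which the submitters' processing notes name MAS5. The version, scaling target and background setting are not given in the sources used here, and the number of arrays limits the precision. Groups and replicate numbers came from the titles. The platform annotation supplied gene names: 34945 had 1 symbol, 932 several and 9160 none, and 34741 of the named ones matched RefSeq by Entrez ID.

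Signals were taken as log2(signal + 32.56), the pseudocount being the 20th percentile of all values, and a filter at the 40th percentile of the mean left 27022 probe sets. For each of 12581 genes the brightest of these stood for the gene. Groups were compared in R 4.3.3 with limma 3.58.1 (lmFit, eBayes with trend) on all 4 arrays without covariate, Benjamini-Hochberg adjusted, threshold 0.05. The fit was tested on simulated data, where estimates were close to the true sizes but the fit without block called few of the changed probe sets. No label ties a replicate number to a litter or day. Around the group means, arrays sharing a number deviated together (r = 0.837 over probe sets), along with the scale. The fit left 2 residual degrees of freedom, or 1 with the replicate block.

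The members, 7 pathway lists and 8 marker lists (hepatocytes, astrocytes and radial glia, meninges, microglia, endothelium and pericytes, red blood cells, choroid plexus, neurons) were chosen with earlier results of these data known. Genes named were all member probe sets, from each pathway list the 4 with the smallest unadjusted p, the 8 most like the members by the higher pair difference, the 6 brightest hepatocyte genes on replicate 1 and the 2 brightest of each other marker list. The Gstm neighbours were added after the values were seen. Alternatives were 3 scalings, 2 pseudocounts, 2 filters, the block, 2 eBayes settings, 2 rules for the probe sets of a gene and leaving out each array.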

Additional observations from a re-analysis of the deposited data

How the results depend on the processing

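Each group had 1 array on each scale, so the fit without the replicate block counted the gap between the scales as spread. With the block, 1 residual degree of freedom remained. limma called 0 probe sets as designed, with the replicate block, under every other alternative and without each array in turn (0 to 0), and it called 0 genes of the pathway lists likewise. The count of member probe sets lower in both pairs was 10 of 11 under 3 scalings, 2 pseudocounts and the stricter filter, and 12 of 14 without a filter. It has no value when an array is left out, since 1 pair then remains. The median over the 8 members of the mean difference was -0.57 (-0.64 to -0.51 over scalings, pseudocounts and averaged probe sets). It was -0.28 in pair 1 alone and -0.68 in pair 2 alone, alternatives chosen after seeing the data. Leaving out 1 array sets a group of both scales against an array of 1 scale, and gave -1.93 to 0.85. It was 0.65 without control replicate 1 and 0.85 without knockout replicate 2, and these values carry the difference between the scales. For single genes, Gpx4 in pair 1 turned from -0.11 to 0.14 with the mean of its probe sets. In pair 2, Mgst1 moved from -1.05 to -1.45 with quantile normalization, -1.24 with a floor of 1 and -0.91 with the higher pseudocount, and Pcbd1 from -0.66 to -1.08, -0.82 and -0.54. Brightness limits the 3 member probe sets below the filter.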

Other observations

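Some genes of the pathway lists stood far apart in one pair or had opposite differences in the 2 pairs. They were chosen after their values were seen and are given as values. Selenom, a selenoprotein of the endoplasmic reticulum, had 1713 on control 1, 2723 on knockout 1, 573 on control 2 and 222 on knockout 2, with log2 differences of 0.66 and -1.25. Selenow, a small selenoprotein abundant in muscle and brain, had 29482, 27627, 4987 and 2723 in the same order, with -0.09 and -0.87. Gstp1, the pi class transferase, was at -0.23 and -0.67, and Gsto1, of the omega class, at 0.64 and -0.56. The thioredoxin gene Txn1 was at -0.07 and -0.60, with 2020 on control 2 and 1322 on knockout 2. Selenow, Gstp1 and Txn1 were lower in both pairs, and mainly in pair 2, as Gpx1 and the brightest probe set of Gstm1 were. Other listed genes were higher in pair 2. Dio2, of the selenoprotein list, had 2287 on control 1, 767 on knockout 1, 124 on control 2 and 442 on knockout 2, with -1.54 and 1.60. In the thioredoxin list, Sesn3 was at -0.36 and 0.52 and Txnip at -0.01 and 0.43.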
